A study of Rattus norvegicus with 144 samples.

Results

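The genes described here encode the proteins of the cytoplasmic ribosome. They were chosen by symbol: protein-coding entries named Rpl or Rps and a number, with an optional letter a, l or x and a further number, plus Rplp0, Rplp1, Rplp2 and Rpsa. The rule found 216 of 45785 genes in the table. Of these, 77 carry the plain symbol of a ribosomal protein, 43 of the large subunit, 31 of the small subunit and 3 of the P stalk, and they lie on 19 chromosomes. The others carry a symbol with an added l (Rpl22l1, Rps18l5), which names a paralog or a copy of a plain gene. They are called plain and l-type genes below.

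RNA from the anterior cingulate cortex, a frontal area of the medial cortex, of Long Evans rats was sequenced. Prenatally, the rats belonged to a pair-fed group (PF), a group given free choice of liquid diet (FCL) or a group exposed to ethanol (PAE). In adolescence they received water (VEH) or alcohol (AAE). Brains were taken at postnatal day 42, a day after the last adolescent exposure and called adolescent here, or at postnatal day 90 with no further challenge, called adult. With both sexes this gives 24 groups of 4 to 7 libraries: 34 from adolescent females, 35 from adult females, 39 from adolescent males and 36 from adult males. All groups share the strain, and the labels give them 1 batch date and no litter or animal name, so p-values measure the spread between libraries, some of which may come from littermates. Library totals ran from 10.6 to 34.4 M counts. Of the libraries, 5 are known to stand apart from the rest in sex-linked genes, olfactory genes or the number of genes detected: replicate 4 of adolescent female PF AAE, replicate 4 of adolescent male PAE VEH, replicate 6 of adult female PF VEH, replicate 1 of adult female FCL AAE and replicate 6 of adolescent male PF VEH. Markers of cortical excitatory neurons were present: in the 4 sets of age and sex, the mean level of Slc17a7 ran from 1370.3 to 1549 CPM (counts scaled to library depth) and that of Camk2a from 4475 to 4596.

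A ribosome holds a single copy of most of these proteins beside the ribosomal RNAs, with the P stalk proteins as the exception, and cells make the set in balanced amounts. The large subunit joins amino acids and releases the growing chain through its exit tunnel, the small subunit reads the mRNA, and the stalk recruits elongation factors. Most of these mRNAs begin with a cytosine followed by a run of pyrimidines, the terminal oligopyrimidine tract, through which mTOR signalling and the La-related protein Larp1 control their translation. In neurons, ribosomes also sit in dendrites and axons, where local protein synthesis serves synaptic change.

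Since that tract marks the class, the stretch around the annotated start is shown for genes the results below turn on. Each sequence has 30 bases before the start and 20 from it, on the transcribed strand, from the RefSeq promoter table of assembly GRCr8, in which 62 of the 77 plain genes have an entry. Capitals mark a C followed by at least 7 more C or T within 20 bases of the start. The first 5 genes hold such a tract. The last 3 do not: Rps3a has a run of 7, just under the limit, Rps4x a run of 5 and Rpl3 a run of 4. Rpl5 lies at chr14:1995206-1995255 (minus strand), Rpl4 at chr8:73566447-73566496 (plus), Rpl9 at chr14:43247560-43247609 (plus), Rps23 at chr2:23814487-23814536 (plus), Rplp0 at chr12:46718371-46718420 (minus), Rps3a at chr2:173827023-173827072 (minus), Rps4x at chrX:71342902-71342951 (minus) and Rpl3 at chr7:113507971-113508020 (minus).
Rpl5: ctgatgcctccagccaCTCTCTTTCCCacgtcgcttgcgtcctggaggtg
Rpl4: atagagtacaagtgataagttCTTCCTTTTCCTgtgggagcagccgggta
Rpl9: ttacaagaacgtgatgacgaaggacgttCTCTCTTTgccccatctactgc
Rps23: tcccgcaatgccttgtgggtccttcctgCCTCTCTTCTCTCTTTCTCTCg
Rplp0: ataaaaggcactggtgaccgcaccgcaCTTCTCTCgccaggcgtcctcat
Rps3a: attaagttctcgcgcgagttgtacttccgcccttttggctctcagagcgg
Rps4x: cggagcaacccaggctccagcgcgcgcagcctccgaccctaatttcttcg
Rpl3: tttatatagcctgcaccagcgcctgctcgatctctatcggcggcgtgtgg

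The tract was present in 44 of the 63 promoters of plain genes (69.8%), against 24.1% of the promoters of l-type genes and 13.8% of all 33469 promoters in the table. In Rpl5 the tract started 14 bases before the annotated start and ran for 11 bases, and in Rps23 it started 2 bases before and ran for 21. The motif CCGGAAG, searched on both strands over the 300 bases of each promoter, occurred in 31.7% of the plain promoters and 8.75% of all. These are matches of letters, and the tract was placed by the annotated start. No binding was measured, nor whether an mRNA begins with its tract.

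Levels per length spanned a wide range among the plain genes. FPKM (deposited fragment counts scaled to depth and gene length) compares genes because it divides by length. Over all libraries, the 6 highest medians were those of Rplp1 (475 FPKM), Rpl41 (455), Rpl37a (419), Rps23 (388), Rpl13a (365) and Rpl26 (365), and 46 of the 77 plain genes lay above 100. The median over the plain genes was 121 FPKM. The lowest medians above 0 were those of Rpl35a (0.914 FPKM), Rpl22 (8.97), Rpl36a (16.7), Rps12 (20.9), Rps14 (23.1) and Rpl3 (27.6). The deposited length enters these values: it is 12209 bases for Rpl3 and 7346 for Rps14, against 496 for Rplp1, and no source used here says which transcripts it covers.

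**Figure D1:**
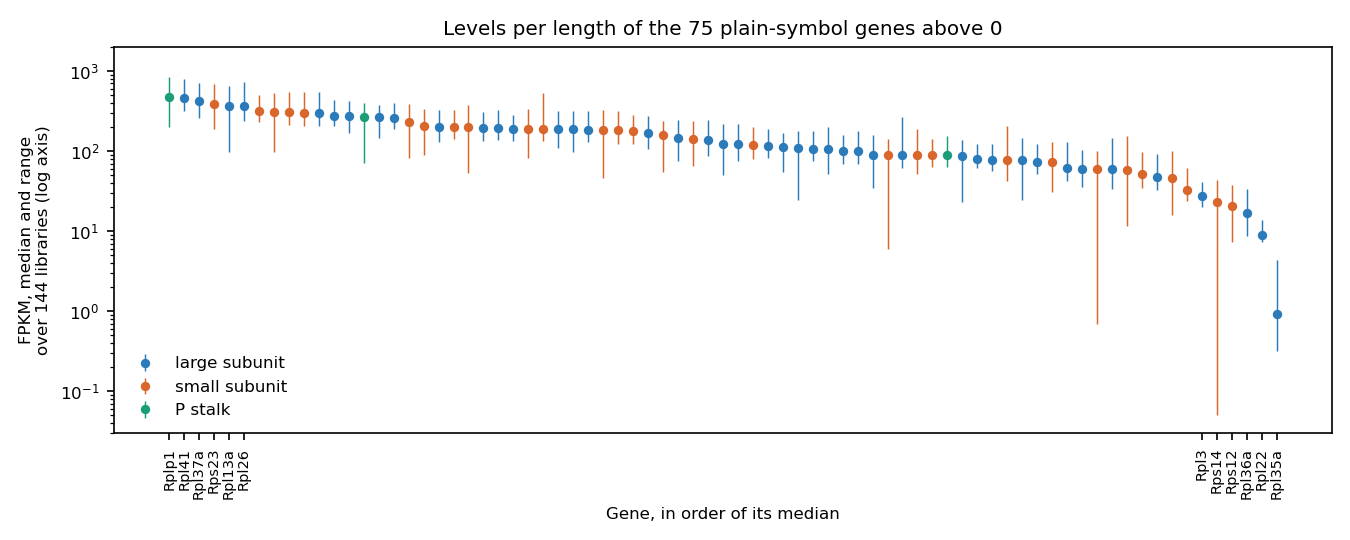
Median FPKM (points, log axis) and lowest to highest FPKM over all libraries (bars) for the 75 plain genes with counts, in order of the median and coloured by subunit, with the 6 highest and 6 lowest named. Of the plain genes 46 lie above 100 FPKM, Rpl35a stands far below, and the bar of Rps14 reaches 0, drawn just above the lower edge.

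Rps6, the main substrate of the S6 kinases, and Rps9 were listed at 0 in every library. Every cell needs both proteins, so a 0 here cannot be read as absence of the mRNA. Near-identical copies are common for this family: 1172 pseudogene entries and 261 other protein-coding entries of the table are described as ribosomal proteins, mitochondrial ones and kinases aside. No source used here says how reads that match several copies were counted, so levels of single members are uncertain. Rpl35a is one such case. It had a median of 32.5 counts, and Rpl35al1, described as a like gene of L35A and outside the naming rule, had 278.5. The library protocol does not keep the strand, so reads from antisense transcripts cannot be separated either.

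The l-type genes added little to the total. They held 2.13% of all counts of the 216 genes, 90 of them had a median of 0 counts, and 17 had no count in any library. Rpl37l1 (66.97 FPKM), Rpl22l1 (63.98), Rpl30l2 (44.1) and Rpl7l1 (24.6) were the most abundant of them. After the filter on low counts, 75 plain and 31 l-type genes were tested in the fit of all libraries. The 110 not tested were Rps6, Rps9 and l-type genes.

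In each library the plain genes together took about 1% of all counts. Among adolescent females the share ran from 0.854% to 1.53% with a median of 1.02% (n = 34), and among adult females from 0.895% to 1.61% with a median of 1.19% (n = 35). Among males it ran from 0.799% to 1.39% with a median of 1.02% in adolescents (n = 39), and from 0.885% to 1.67% with a median of 1.16% in adults (n = 36). The ranges overlapped widely. Of the adult libraries, 30 of 35 female and 31 of 36 male ones lay above the median of the adolescents of their sex, and the adult mean was higher by 14.7% and 17.6%. A sum over genes chosen with results known is given without a test. In bulk tissue, fewer cells of a type and less RNA per cell cannot be told apart.

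**Figure D2:**
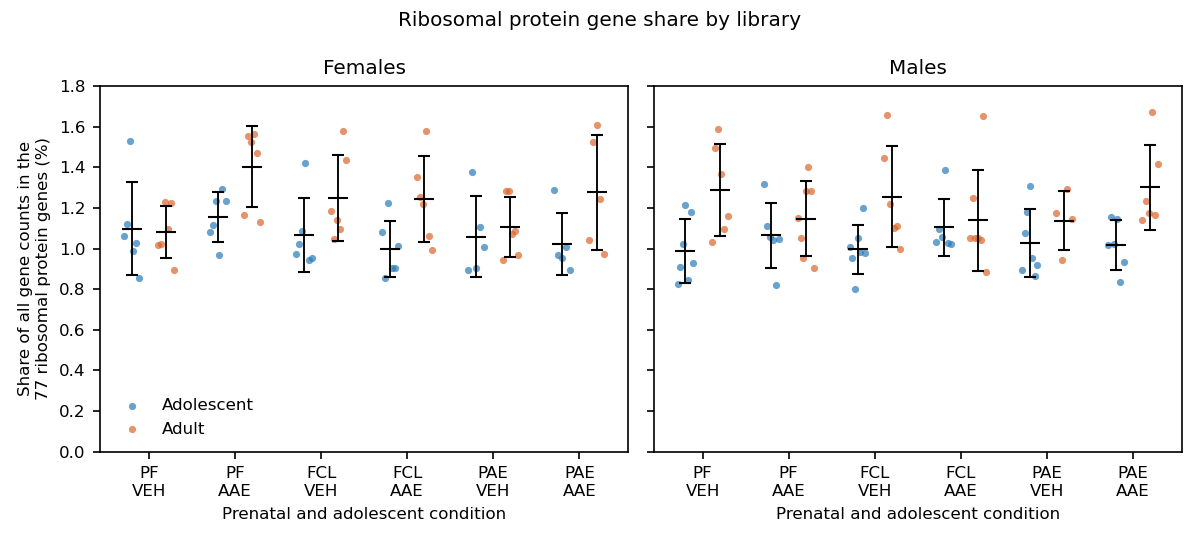
Share of all gene counts held by the 77 plain genes (percent) in each library (points), with mean and SD (bars), by sex, treatment group and age. Adult points sit above adolescent ones in most treatment groups, with wide overlap, and the means lie close together in female PF VEH and PAE VEH and male FCL AAE.

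Most plain genes had a higher mRNA level in adults than in adolescents, in both sexes. In the comparison averaged over the 6 treatment groups (edgeR quasi-likelihood test, Benjamini-Hochberg adjustment over 20137 genes), 47 of the tested members (44.3%) rose in adult females and 0 fell, where 4.81% of all genes rose. In adult males 65 (61.3%) rose and 0 fell, where 6.95% of all genes rose. For those that fell, 4.21% of all genes did so in females and 6.11% in males. The changes were small. The plain genes that rose did so by 1.09- to 1.245-fold in females and 1.09- to 1.29-fold in males, and the median log2 difference of all 75 tested was 0.21 and 0.24, where the median over all genes was -0.00 and -0.01. Of the plain genes, 43 rose in both sexes, 14 passed the threshold in males and not in females, 1 in females and not in males (Rplp2) and 17 in neither. The female count was 18 to 25 when PF AAE, FCL VEH, FCL AAE or PAE AAE was left out, and 0 with PF VEH and FCL VEH alone. In males the count was 37 without FCL VEH and 40 without PAE AAE. The share of all genes called under these settings is not given here, so the drops cannot be read as particular to the members. The difference between the sexes was tested directly: 0 members and 0 of all genes had an age difference that differed between males and females by edgeR (0% of genes called), 2 members did so at an unadjusted p under 0.05 (5.28% of all genes), and DESeq2 called 0.

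The rise covered both subunits. Among large subunit genes 27 of 43 rose in females and 34 of 43 in males. Among tested small subunit genes it was 16 of 29 and 23 of 29. Of the 31 tested l-type genes, 3 rose in females and 8 in males. Single libraries overlapped between the ages for every plain gene. Per gene, between 14 and 34 of the 35 adult female libraries lay above the adolescent median, with a median of 27, and in males between 15 and 34 of 36, with a median of 29.

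**Figure D3:**
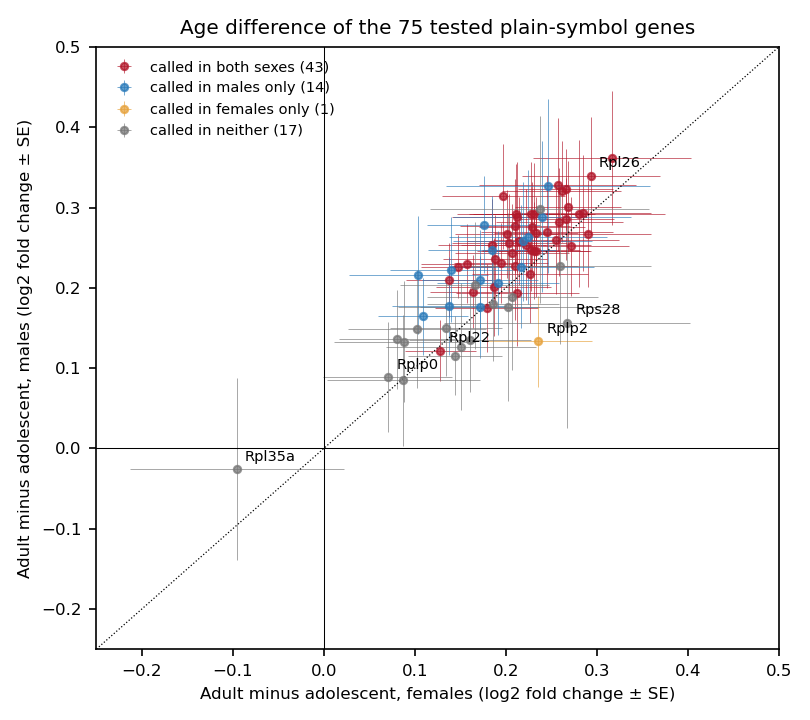
Log2 fold change, adult minus adolescent, in females (x axis) and males (y axis) with SE bars for the 75 tested plain genes, coloured by the sex in which they passed an adjusted p of 0.05. All but Rpl35a lie in the upper right, close to the dotted line of equal values.

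Rpl5 had the smallest p among the members in both sexes. Its protein enters the large subunit together with Rpl11 and the smallest of the subunit's RNAs. The mRNA had scaled levels of 162 to 291 CPM with a median of 196 in adolescent females and of 190.2 to 331 with a median of 242 in adult females. In males its levels were 142 to 267 CPM with a median of 193.4 in adolescents and 191.1 to 360.3 with a median of 241 in adults. Adults were higher in 32 of 35 female and 33 of 36 male libraries when set against the adolescent median, and 9 and 10 of them exceeded every adolescent library. The log2 difference was 0.27 ± 0.05 (SE) in females (adjusted p = 1.01e-04) and 0.32 ± 0.05 in males (adjusted p = 3.27e-07).

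Rpl11, the partner of Rpl5, rose less: the log2 difference was 0.21 ± 0.07 in females (adjusted p = 0.0296) and 0.19 ± 0.07 in males (adjusted p = 0.0332). Its mean went from 105.4 ± 22.3 (SD) to 122.1 ± 25.4 CPM in females and from 100.6 ± 17.3 to 114.99 ± 22.01 in males. In females it no longer passed without replicate 6 of the adult PF VEH group, the library described further on in which Rpl11 was above all others (0.19, adjusted p = 0.0547), nor without the 5 libraries that stand apart (adjusted p = 0.0833).

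Rpl4 and Rpl17, whose proteins line the exit tunnel, rose as well. Rpl4 had a median of 336 CPM in adolescent and 388 in adult females, within 292 to 447 and 318 to 519, and of 329 and 377 CPM in males, within 268 to 445 and 315 to 561. Of the adults, 33 of 35 females and 34 of 36 males lay above the adolescent median of their sex. The log2 difference of Rpl4 was 0.23 ± 0.05 in females (adjusted p = 1.40e-04) and 0.27 ± 0.04 in males (adjusted p = 1.96e-06), and that of Rpl17 0.27 ± 0.06 and 0.30 ± 0.06.

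Rpl3, whose protein reaches the site where the peptide bond forms, was among the least variable members. Its mean rose from 334 ± 33.1 to 369.9 ± 51.6 CPM in females (log2 difference 0.15 ± 0.04) and from 318 ± 29.9 to 373 ± 52.5 in males (0.23 ± 0.04, adjusted p = 6.33e-06). Rpl9 rose from a mean of 251 to 301 CPM in females and from 239.8 to 301 in males, by 0.26 and 0.32 on the log2 scale. Rpl35, Rpl26, Rpl19 and Rpl23a, which stand around the exit of the tunnel or near it, rose by 0.29, 0.29, 0.20 and 0.21 in females and by 0.27, 0.34, 0.27 and 0.28 in males.

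Other large subunit genes rose by like amounts. Rpl34 rose by 0.27 in females and 0.25 in males on the log2 scale, Rpl14 by 0.23 and 0.25, Rpl7 by 0.23 and 0.25, and Rpl32 by 0.20 and 0.31. The largest difference among plain genes was that of Rpl36a, an X-linked gene with a low level per length, at 0.32 ± 0.09 in females and 0.36 ± 0.08 in males. Rpl22 showed the smallest difference among those that rose, 0.13 ± 0.04 and 0.12 ± 0.04. It also had the least variable level within groups.

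Small subunit genes showed the same direction. Rps3a, which lies at the mRNA exit of the small subunit, had levels of 199 to 365 CPM with a median of 253 in adolescent females and 225 to 456 with a median of 280.4 in adult females. In males the median went from 238 CPM, within 183.1 to 333, to 284, within 219 to 484. The ages overlapped, and 29 of 35 female and 33 of 36 male adults lay above the adolescent median. The log2 difference was 0.23 ± 0.06 in females (adjusted p = 0.00457) and 0.28 ± 0.06 in males (adjusted p = 1.51e-04). Rps4x, on the X chromosome, rose by 0.20 ± 0.05 and 0.23 ± 0.05, and Rpsa, a small subunit protein also known as a laminin receptor, by 0.19 ± 0.06 (adjusted p = 0.0456) and 0.20 ± 0.06 (adjusted p = 0.0161).

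Of the 3 P stalk genes, 1 rose in females and 0 in males. Rplp0, the scaffold of the stalk, had a log2 difference of 0.07 ± 0.07 in females (adjusted p = 0.62) and 0.09 ± 0.07 in males (adjusted p = 0.447). Rplp1 had 0.17 ± 0.08 (adjusted p = 0.213) and 0.20 ± 0.08 (adjusted p = 0.0732). Rplp2 rose in females by 0.24 ± 0.06 (adjusted p = 0.00326), and in males it had 0.13 ± 0.06 (adjusted p = 0.107). That difference between the sexes did not pass its test. Rps27a, made as a fusion of ubiquitin and a small subunit protein, was variable, with 57.04 to 232 CPM in adolescent and 62.4 to 217 CPM in adult females, and did not pass (0.20 ± 0.12, adjusted p = 0.331 in females and 0.18 ± 0.12, adjusted p = 0.36 in males).

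Among the 17 plain genes that passed in neither sex were Rplp0, Rplp1, Rpl41, Rpl18, Rps2, Rps27a, Rpl27, Rpl10a, Rps13, Rpl36, Rps12, Rps27, Rpl38, Rpl39, Rps28 and Rpl35a. Of the 17, all but Rpl35a had positive values in both sexes. Rpl41, with the shortest protein of the ribosome, had 0.10 ± 0.08 in females and 0.15 ± 0.07 in males. Rpl35a, at about 2 CPM, had -0.10 ± 0.12 (adjusted p = 0.699) and -0.03 ± 0.11 (adjusted p = 0.922).

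Paralogs can be set beside the gene they resemble. Rpl22l1, which can take the place of Rpl22, had a mean of 38.8 ± 9.00 CPM in adolescent and 44.01 ± 11.9 in adult females (0.17 ± 0.08, adjusted p = 0.172) and rose from 35.7 ± 7.32 to 43.5 ± 11.8 in males (0.28 ± 0.08, adjusted p = 0.00824). Rps27l had a median of 2.05 FPKM beside 46.4 for Rps27, and its log2 differences were 0.15 ± 0.08 and 0.00 ± 0.08, against 0.24 ± 0.12 and 0.30 ± 0.12 for Rps27, none of which passed. Rpl7l1 stayed between 53.2 and 75.9 CPM outside replicate 6 of adult female PF VEH, at 19.8, and had -0.03 ± 0.04 (adjusted p = 0.688) and 0.02 ± 0.04 (adjusted p = 0.767). Rpl3l, a form known from muscle, was at most 0.910 CPM in any library.

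The other l-type genes that rose were Rpl37l1, Rps18l1 and Rpl31l15 in females, and Rpl37l1, Rps18l1, Rpl30l2, Rpl5l1, Rpl32l3, Rpl36l6 and Rps25l3 beside Rpl22l1 in males. Rpl37l1 rose by 0.27 ± 0.09 (adjusted p = 0.0365) and 0.33 ± 0.09 (adjusted p = 0.00349), next to 0.26 ± 0.09 and 0.33 ± 0.08 for Rpl37. Rps18l1 rose by 0.26 ± 0.07 and 0.21 ± 0.07, next to 0.20 and 0.26 for Rps18. Whether such copies share reads with the plain gene was not tested. Without replicate 6 of the adult female PF VEH group, Rpl31l15 (0.31, adjusted p = 0.0728) and Rpl37l1 (0.23, adjusted p = 0.0708) no longer passed in females.

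The authors' deposited table gives the same direction in its comparison of all adolescents with all adults: 78 members, 40.8% of those with a value, were called higher in adults, where 6.12% of all genes in that table were, and 0 were called higher in adolescents, where 6.03% were. The authors' deposited table called 0 members in its 5 comparisons of exposure, diet and sex, where it called 0.00502%, 0%, 0.00781%, 0.013% and 0.0703% of all genes. These are the authors' values from the same libraries.

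The tract shown above was set beside the age difference. The 44 plain genes with it had a median age difference of 0.22 in females and 0.25 in males, and 25 and 33 of them rose. The 16 tested genes without it had 0.19 and 0.22, and 9 and 11 rose. Rplp0 has a matched tract of 8 bases and did not pass, and Rpl3 has no match and rose. The difference between these sets was not tested.

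Lists of other genes of translation were examined in the same fits. In these, 4.81% of all genes rose and 4.21% fell in females, and 6.95% rose and 6.11% fell in males. Of 3 ribosomal proteins outside the naming rule found in the table, Fau rose in both sexes (0.21 ± 0.07 and 0.23 ± 0.07) and Rack1, a scaffold on the small subunit, rose in males (0.18 ± 0.06). Of 16 translation factors and other mRNAs known to carry the tract, 7 rose and 0 fell in females and 8 rose and 1 fell in males, with medians of 0.12 and 0.12. Eef1a1, the factor that brings tRNA to the ribosome, rose from 1887 ± 212 to 2110.5 ± 275 CPM in females (0.16 ± 0.04) and by 0.18 ± 0.04 in males. Eif4b rose by 0.11 ± 0.02 in females, Npm1 by 0.14 ± 0.04 in females and Eef1b2 by 0.28 ± 0.05 in males. The one that fell was Pabpc1, the poly(A) binding protein, by 0.20 on the log2 scale in males (adjusted p = 3.75e-05).

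Of 22 initiation factors, 1 rose and 2 fell in females and 5 rose and 2 fell in males. Eif4a1 and Eif4g1, parts of the cap-binding complex, fell by 0.10 and 0.08 in females, while Eif3m rose by 0.14. In males Eif3g rose by 0.15 and Eif5 by 0.10, and Eif4a1 fell by 0.09. Of 43 genes of ribosome assembly and RNA polymerase I, which makes ribosomal RNA, 1 rose and 1 fell in females. In males 5 rose and 0 fell, and the medians were 0.00 in females and 0.02 in males. For both lists, the share of genes that rose was below that of all genes in females and above it in males. Sbds, a large subunit maturation factor, rose by 0.16 and 0.15, Ebna1bp2 and Eif6 rose in males by 0.17 and 0.13, and Polr1a, the largest subunit of RNA polymerase I, fell by 0.13 in females.

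Of 20 genes of the mTOR pathway and regulators of the tract, 0 passed in females (edgeR), where Rps6kb2 had the smallest p (-0.18 ± 0.08, unadjusted p = 0.0227, adjusted p = 0.141), and 1 rose and 3 fell in males. Rheb, the activator of mTOR, rose by 0.14 ± 0.03 in males, and Myc and Mycn, transcription factors that drive ribosome synthesis, fell by 0.39 and 0.23. Larp1 had -0.00 ± 0.02 and 0.01 ± 0.02. Of 74 tested mitochondrial ribosomal protein genes, 1 rose in females and 11 in males and none fell, with medians of 0.02 and 0.09. The share of them that rose was likewise below that of all genes in females and above it in males. Mrps18c rose by 0.25 ± 0.09 in females, and Mrps28, Mrpl48 and Mrpl19 rose in males by 0.30, 0.21 and 0.16. These lists were drawn up with earlier results of the libraries known.

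Other features of the libraries moved with age too. Markers of oligodendrocytes had lower values in adults (6 of 6, with medians of -0.28 in females and -0.61 in males), of which 0 and 4 fell past the threshold. Their summed level ran from 2385 to 19684 CPM in adolescent and 2595 to 12154 in adult females, and from 2944 to 23958 and 2072 to 16596 CPM in males. All 4 precursor markers were lower, of which 2 fell in females and 3 in males, with summed levels of 138.1 to 409 and 102.985 to 274 CPM in females and 170.1 to 421 and 96.1 to 249 in males. All 3 red cell markers were lower, 2 and 3 past the threshold, with summed levels of 6.43 to 207 and 1.56 to 114.5 CPM in females and 6.64 to 377 and 2.86 to 249 in males. Endothelial markers were lower in 5 of 5, 0 and 3 past the threshold, and 0 and 2 of 6 microglial markers fell. Meningeal markers were lower in 3 of 4 in females and 4 of 4 in males, 0 and 1 past the threshold, with medians of -0.20 and -0.51 and summed levels of 29.5 to 1095 and 15.5 to 2665 CPM in females and 43.4 to 469 and 9.74 to 489 in males. All 5 striatal markers were higher in both sexes, 1 past the threshold in each, with medians of 0.25 and 0.28 and summed levels of 86.97 to 266 and 80.3 to 448 CPM in females and 86.8 to 212 and 98.3 to 721 in males. The 4 markers of olfactory mucosa were higher in adult females and lower in adult males with 0 past the threshold, and their summed level reached 2638 CPM in an adult female and 3283 in an adolescent male library. Excitatory neuron markers were higher in 4 of 6 in each sex, with medians of 0.01 and 0.05. Among these, Slc17a7 alone passed, and it fell in females (-0.18 ± 0.04). Inhibitory neuron markers were higher in 6 and 5 of 6, with medians of 0.08 and 0.07, and 2 rose in males. Astrocyte markers were higher in 5 and 3 of 6, with medians of 0.03 and -0.01, and 1 rose in each sex. No marker of any list was at 0 in all libraries of an age and sex. Their part in the age difference of the ribosomal protein genes was not tested.

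Gene length was another such feature, since most of these mRNAs are short. The share of counts in 648 other protein-coding genes shorter than 1000 bases had medians of 1.84% and 1.86% in adolescent and adult females and 1.82% and 1.91% in males. Within groups, the log2 share of the plain genes varied with that share at a correlation of 0.91 over all libraries, a description only, as both shares come from the same library totals. The short genes had a median age difference of 0.03 in females and 0.05 in males, where the 42 plain genes of that length had 0.21 and 0.25. The log2 share of short genes was then added as a term in the fit, a choice made after seeing the data. With it 55 members rose and 0 fell in each sex. The median over members was 0.15 in females and 0.16 in males, in place of 0.20 and 0.23. The share of all genes called in that fit is not given here.

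The plain genes varied together between libraries of 1 group. Over their 2775 pairs, the median correlation of log2 levels after subtracting group means was 0.79, and 0.86 without the 5 libraries that stand apart. These are descriptions over libraries that share scaling and depth. Rpl35a was the exception, with a mean correlation of -0.03 with the other plain genes, and Rps27a was the next lowest at 0.45. Over all libraries, counts of Rps14, Rps19, Rps28, Rps27, Rps27a, Rps12 and Rps2 varied most within groups. For Rps14, Rps19 and Rps2 this includes the adult female PF VEH library described next, with 0, 18 and 86 counts. Their mean correlations with the other plain genes were 0.46, 0.51 and 0.59. Without the 5 libraries that stand apart they were 0.85, 0.84 and 0.76.

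In replicate 6 of the adult females of the PF VEH group, 33 of the 75 plain genes lay below the range of the libraries that do not stand apart and 7 above it, in CPM of the library total. Rps14 had 0 counts there, which allows up to 3, where the others had 118.05 to 310.4 CPM. Rps19 had 18 counts (1.36 CPM, others at least 74.7) and Rps2 86 counts (6.51 CPM, others at least 67.3). Rpl34 (229.7 CPM), Rps26 (260.1), Rpl35 (375), Rps27a (229), Rpl17 (308), Rps24 (199) and Rpl11 (196) lay above all others.

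A copy of Rps14 and a copy of Rps2 were low in that library as well. Rps14-ps7, a transcribed pseudogene, had 15.6 CPM against 51.2 to 134.95 in the others, and Rps2-ps18 had 7.95 against 37.6 to 92.8. The summed share of the plain genes there was 0.895%, the lowest of the adult females, and the library had the fewest genes with a count, 15631. In each of the 4 other libraries known to stand apart, at most 1 plain gene lay outside the range of the rest.

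**Figure D4:**
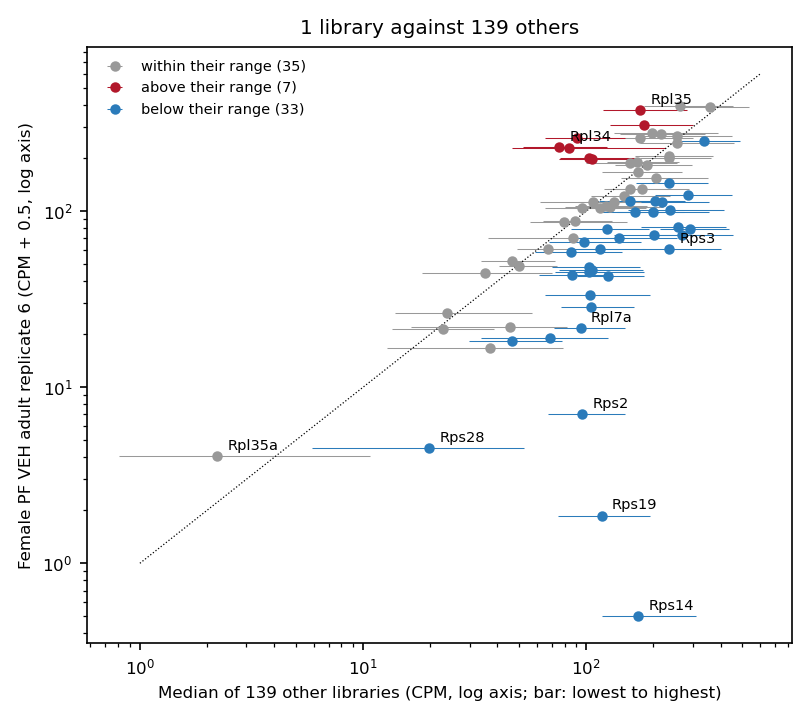
Level of the 75 plain genes in the adult female PF VEH replicate 6 library (y axis, CPM + 0.5, log axis) against the median of the libraries that do not stand apart (x axis, log axis, bars from lowest to highest). Rps14, Rps19, Rps2 and Rps28 lie far below the dotted line of equal values, and 7 genes lie above their range.

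With that library left out, a choice made after its values were seen, 57 members rose in adult females in place of 47 and 65 rose in males. Rps14 then passed in females, with 0.29 (adjusted p = 0.00228) in place of 0.25 (adjusted p = 0.167), and so did Rps19, with 0.28 (adjusted p = 8.52e-04) in place of 0.24 (adjusted p = 0.109). Without all 5 libraries that stand apart, 52 rose in females and 72 in males. Rpl11, Rpl31l15 and Rpl37l1, named above, went the other way and were lost in females. For both fits the share of all genes called is not given here, so the gains cannot be read as particular to the members.

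The age difference was also computed within each treatment group. Over the 75 plain genes, the median log2 difference in females was -0.04 in PF VEH, 0.30 in PF AAE, 0.24 in FCL VEH, 0.29 in FCL AAE, 0.06 in PAE VEH and 0.34 in PAE AAE. The PF VEH value was 0.03 without replicate 6 of the adults. In males it was 0.40 in PF VEH, 0.13 in PF AAE, 0.36 in FCL VEH, 0.04 in FCL AAE, 0.14 in PAE VEH and 0.37 in PAE AAE. Median values of all genes lay between -0.04 and 0.02. Whether the groups differed in these medians was not tested. Rpl5 had log2 differences of 0.10 ± 0.13 to 0.41 ± 0.12 in the female groups and 0.13 ± 0.12 to 0.51 ± 0.12 in the male groups.

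Within single treatment groups, members passed in 2 of 12 comparisons. In male PF VEH 5 members rose, where 0.219% of all genes rose, and in male FCL VEH 2 rose, where 0.432% of all genes did. Rpl5 was among both, and 0 members fell in either. DESeq2 called 6 and 5. In the other 10 comparisons 0 members passed by edgeR, and DESeq2 called 4 in female FCL AAE and 0 in the other 9. Between 2 and 57 members had an unadjusted p under 0.05 by edgeR, and the share of all genes at that level was not computed. The shares below are of adjusted calls, so they cannot be set against that count. Of all genes, edgeR called 1.29% in female PF VEH, 0.0248% in PF AAE, 0.0596% in FCL VEH, 4.56% in FCL AAE, 0.0844% in PAE VEH and 0.00993% in PAE AAE. In males it called 0.144% in PF AAE, 0.209% in FCL AAE, 0.00497% in PAE VEH and 0.447% in PAE AAE.

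Whether the age difference differed between the alcohol and water groups was tested after these values were seen. In females the difference of differences was positive for 75 of 75 plain genes, with a median of 0.21, and in males it was negative for 73 of 75, with a median of -0.12. By edgeR 0 members and 0% of all genes were called in either sex, and 9 and 2 members had an unadjusted p under 0.05 (5.61% and 2.62% of all genes). With the log2 share of short genes as a term, the median over members was 0.05 in females in place of 0.21. In males it was -0.11 in place of -0.12. The opposite signs in the sexes were not tested against each other. The genes vary together between libraries, so the number of genes with a sign is not a number of independent observations.

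**Figure D5:**
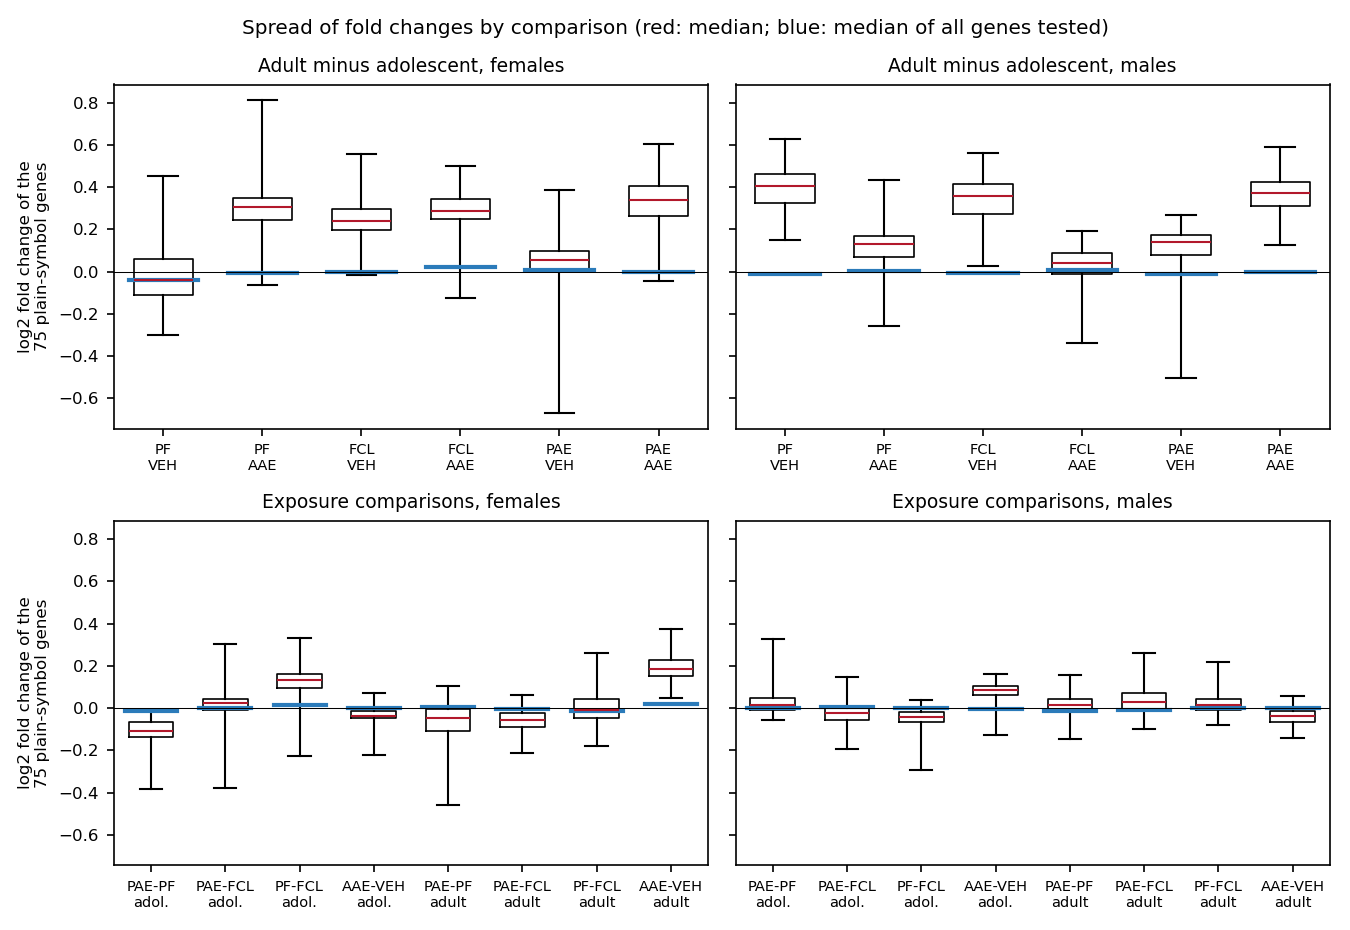
Log2 fold changes of the 75 plain genes (boxes: quartiles; whiskers: lowest to highest; red: median) with the median of all tested genes (blue), for age in each treatment group (top) and for exposures in each sex and age (bottom). Age medians are lowest in female PF VEH and PAE VEH and male FCL AAE, and of the 4 exposure comparisons drawn, AAE-VEH in adult females has the highest median.

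No member passed in any comparison of exposures when each sex and age was fitted by itself. Within each sex and age, PAE against PF, PAE against FCL, PF against FCL, AAE against VEH, both exposures against neither and the interaction of prenatal and adolescent exposure were tested, 24 comparisons in all. Both edgeR and DESeq2 called 0 members in each, and edgeR called 0% of all genes. The fit of all libraries called 1 member, in PAE against PF of adolescent females. Between 0 and 32 members had an unadjusted p under 0.05, where 1.97% to 8.10% of all genes did.

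The count of 32 belonged to AAE against VEH in adult females, 31.7% of the tested members, where 7.73% of all genes reached that level. All 75 plain genes had positive values, from 0.05 to 0.37 with a median of 0.19, and all genes had a median of 0.02. Rps12, the smallest p, had 20.3 to 74.8 CPM with a median of 47.001 in 18 water libraries and 33.1 to 78.8 with a median of 60.007 in 17 alcohol libraries. The 2 sets overlapped over most of their range, and the log2 difference was 0.33 ± 0.12 (unadjusted p = 0.00899, adjusted p = 0.531). Rps20 had 45.1 to 156 CPM with a median of 99.3 in water and 91.9 to 172.7 with a median of 120.4 in alcohol libraries (0.29 ± 0.11, adjusted p = 0.555). For both genes the lowest water value is that of replicate 6 of PF VEH, and neither difference is given without that library. Rpl5 had 0.13 ± 0.07 (adjusted p = 0.691).

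The summed share of plain genes had medians of 1.10% in water and 1.254% in alcohol libraries of adult females, and that of the other short genes 1.84% and 1.94%. Leaving out each library in turn kept 0 members called, with medians over all members between 0.14 and 0.21, and 0.17 without replicate 6 of PF VEH. In adult males the same comparison gave a median of -0.04, with 65 of 75 plain genes negative and 1 member at an unadjusted p under 0.05 (3.42% of all genes). No single ribosomal protein gene passed the test in either sex.

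In adult males, the interaction of prenatal and adolescent exposure was positive for 75 of 75 plain genes, with a median of 0.39 and 17 members at an unadjusted p under 0.05 (16.8%, against 3.17% of all genes). Its smallest p among the members was that of Rps24 (0.53 ± 0.22, adjusted p = 0.995). In adult females the interaction had a median of -0.19, with 0 members at that level (6.53% of all genes). In adolescents it was negative for 72 of 75 in each sex, with medians of -0.15 in females and -0.12 in males. At that level lay 0 and 2 members (4.02% and 1.97% of all genes). AAE against VEH in adolescent males was positive for 71 of 75, with a median of 0.08 and 2 members at that level (4.89%). Both exposures against neither in adult females was positive for 71 of 75, with a median of 0.25 and 14 members (13.9%, against 8.10%). The adult female PF VEH group, which enters that comparison and the adult female interaction, holds the replicate 6 described above. Neither median is given without that library. In adolescent females PAE was lower than PF in 75 of 75 plain genes, with a median of -0.11 and 4 members at an unadjusted p under 0.05 (4.59% of all genes), and PF was higher than FCL in 74 of 75, with a median of 0.13 and 2 members at that level (5.29%). These comparisons share the PF libraries. PAE against FCL there had a median of 0.02. The median SE of a plain gene in these comparisons ran from 0.08 to 0.25 on the log2 scale.

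Sex made no difference that passed. In adolescents 0 members were called by edgeR (0.119% of all genes were) and 3 had an unadjusted p under 0.05 (5.91% of all genes). In adults 0 were called (0.0844% of all genes) and 5 had such a p (4.73%). DESeq2 called 0 in both. The median over plain genes, male minus female, was -0.05 in adolescents and -0.01 in adults.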

How the data were processed

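Total RNA of each brain sample was made into cDNA with random primers in libraries that do not keep the strand, per the labels' protocols. The submitters' processing notes name fastp and HISAT2 2.0.5. No source used here names the counter or its handling of reads with several matches. The authors deposited whole-number counts per gene, FPKM per gene, and a table of log2 fold changes with adjusted p-values for their own comparisons. Gene positions in the deposited table equal those of RefSeq GRCr8 for all 216 members.

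Counts were analysed with edgeR 4.0.16 in R 4.3.3: filterByExpr (minimum count 10), TMM scaling, robust quasi-likelihood fits and Benjamini-Hochberg adjustment over all tested genes, called at 0.05. Of the members, 106 were tested in the fit of all libraries and 101 or 102 in the others. A range set beside a library that stands apart is that of the 139 others unless said otherwise. One fit of 144 libraries and 24 groups gave age and sex comparisons, and a fit per sex and age gave exposures. CPM values are TMM-scaled unless said to be of the library total, and ± is the SE for log2 values and the SD for levels. Alternatives used DESeq2 1.42.0, sva 3.50.0 (2 surrogate variables), other scaling or filters, left-out libraries and left-out treatment groups. The 5 libraries called apart were known from earlier results to stand apart in sex-linked or olfactory genes or in gene detection. Replicate numbers are in accession order. Scripts were tested on simulated data.

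Genes were named by rank within each age comparison (the 12 smallest p), by role, as paralogs, by highest and lowest level, and by smallest p in other comparisons. Members and lists were chosen with earlier results of these data known. Correlations used log2(CPM + 0.5). Precision is limited by depth for genes under a few CPM; a count of 0 allows up to 3 counts, and such limits cover counting error only. Results of a few genes are not reported here.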

Additional observations from a re-analysis of the deposited data

Results flagged for a closer look

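In 48 checks of a group for a single far library (the summed share of plain genes and Rpl5 in each of the 24 groups), 4 libraries stood apart from the rest of their group, where chance gives about 1 in 20. In adolescent females of the FCL VEH group, replicate 4 had a share of 1.42% where the next was 1.09%. In adolescent females of the PAE AAE group, replicate 1 had 1.29% where the next was 1.01%. In adolescent males of the FCL AAE group, replicate 4 had 1.39% where the next was 1.09%. In adolescent females of the PF VEH group, replicate 3 had 291 CPM of Rpl5 where the next had 213. All 4 are the highest library of an adolescent group.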

How the results depend on the processing

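Signs of the age differences were followed under each setting for members named by rank, by role or as paralogs. None of these that was called as reported changed sign, and the other called members were not followed singly. Rpl32l1, which the filter on low counts removes, was called lower in adult males when no such filter was used, beside 58 members called higher. The number of members higher in adult females, 47, became 0 with only the PF VEH and FCL VEH groups (12 at an unadjusted p under 0.05), 18 without PF AAE, 25 without FCL VEH, 21 without FCL AAE and 18 without PAE AAE. In males 65 became 37 without FCL VEH and 40 without PAE AAE. The other settings gave 33 to 63 in females and 44 to 72 in males. Shares of all genes are not given for any of these settings, so changes in the counts cannot be read as particular to the members. All counts that follow within treatment groups were of members higher in adults, and 0 were lower. With the share of short genes as a term, 7 members passed in female PF VEH, 3 in female FCL AAE, 1 in female PAE AAE, 12 in male PF VEH and 20 in male FCL VEH, where 1.14%, 2.26%, 0.0248%, 0.243% and 0.814% of all genes were higher. Without replicate 6 of the adult female PF VEH group the counts were 2 in female FCL AAE, 8 in male PF VEH and 6 in male FCL VEH, where 4.11%, 0.433% and 1.01% of all genes were higher. DESeq2 called 4 in female FCL AAE and 5 in male FCL VEH, where it called 3.58% and 0.745% of all genes higher. Male PF VEH had 1 without a filter on low counts and 1 with 2 surrogate variables, where 0.0729% and 0.144% of all genes were higher. Male FCL VEH had 26 with 2 surrogate variables and 10 without the 5 libraries apart, where 1.44% and 1.41% were. PAE against PF in adolescent females had 1 in the fit of all libraries, and the share of all genes called in that fit is not given here. Where no value above shows it, the cause was not tested. Leaving out each library in turn gave 0 members called in all 864 exposure values. No paired analysis was possible because replicate numbers were given in accession order and the labels name no litter or animal.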
